A study of Mus musculus with 27 samples.

Results

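Ren1, Agt, Agtr1a and Ace, which encode renin, angiotensinogen, the type 1a angiotensin II receptor and angiotensin converting enzyme, were taken by gene symbol as 4 of the 19392 genes measured, and all 4 were expressed in every kidney. The kidneys came from wild-type C57BL/6 mice in the uIRIx model, in which the right kidney is removed and the pedicle of the left kidney is clamped on a 37°C warm plate. The clamp times were 0 (sham), 16, 18, 20, 22, 24, 26, 28 and 30 min, with 3 mice per time and 27 in all. The left kidney was taken after 24 h of reperfusion, and the sources used here do not say whether the right kidney was also removed in the 0 min group. Every value comes from RNA of kidney tissue holding all its cell types, so fewer cells of a type and less RNA per cell cannot be told apart. No transgene was used, and the age and sex of the mice are not in the labels. The Y-linked genes Ddx3y, Kdm5d, Uty and Eif2s3y were above 0 FPKM in all 27 kidneys.

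The renin-angiotensin system sets blood pressure and salt balance. Renin, released by juxtaglomerular cells of the afferent arteriole, cuts angiotensinogen to angiotensin I, and angiotensin converting enzyme turns this into angiotensin II. Angiotensin II acts mainly through the type 1 receptor, which constricts vessels and promotes sodium uptake in the tubule. In the kidney, the proximal tubule also makes angiotensinogen and carries angiotensin converting enzyme on its brush border.

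Levels are in FPKM, that is, fragments counted per kilobase of transcript relative to all fragments mapped, a scale that allows levels of different genes to be set side by side. At 0 min the mean levels were 67.7 FPKM for Agt, 62.4 FPKM for Ace, 56.0 FPKM for Ren1 and 20.2 FPKM for Agtr1a. Differences were tested with limma on log2(FPKM + 1) after quantile normalization across the 27 kidneys, over 18188 genes, and are given as log2 fold changes with standard errors (SE). All adjusted p-values are limma's, with Benjamini-Hochberg adjustment over all genes tested. A gene counted as a differentially expressed gene (DEG) when its adjusted p-value was under 0.05 and its log2 fold change was beyond 1 in either direction, and it is also said to have risen or fallen where the adjusted p-value alone was under 0.05.

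The kidneys at 0 min differed among themselves in interferon-response genes. The summed level of 7 interferon-response genes (Irf1, Gbp2, Gbp3, Iigp1, Psmb8, Psmb9 and Tap1) was 50.03, 1017.01 and 706.47 FPKM in the 3 kidneys. These 7 genes were DEGs and lower than at 0 min at all 8 ischemia times. Leaving out both kidneys with a sum above 500 FPKM (an alternative chosen after seeing the data) leaves only the 0 min kidney at 50.03 FPKM. Log2 fold changes alone are therefore given for this alternative. At 28 min they were -2.11 for Agt and -2.08 for Ace, and at 30 min they were -2.62 and -2.56. Havcr1, the tubular injury marker KIM1, was at 2.81, 2.49 and 22.02 FPKM in the 0 min kidneys. Lcn2, another marker of renal injury, was at 11.49, 9.39 and 63.62 FPKM in the same kidneys in this order. At 16 min, 1 kidney had 35.08 FPKM of Havcr1, against 331.86 and 574.47 FPKM in the others. The smallest steps between low values put the depth of each library between 0.935 and 1.08 of the median. This estimate used only values close to the smallest of each gene, so a large difference in depth could not show in it. The absolute depth is unknown, and the precision rests on 3 kidneys per time.

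Agt encodes the substrate of renin and lies on the minus strand at chr8:124556534-124569706 (GRCm38). At 0 min its levels were 67.54, 62.79 and 72.64 FPKM, a mean of 67.7 ± 4.93 FPKM (SD, n = 3). In the 18 kidneys from 16 to 26 min the lowest level was 38.28 FPKM, the median was 51.2 FPKM and the highest was 70.05 FPKM. Kidneys of this interval reached into the range of the 0 min group at 16, 20 and 24 min. At 28 min the 3 kidneys had 13.37, 17.43 and 17.74 FPKM, and at 30 min they had 10.39, 11.11 and 10.43 FPKM. All 6 kidneys at 28 and 30 min were thus below every other kidney, and the mean level was 23.9% of that at 0 min in the 28 min group and 15.7% in the 30 min group.

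The log2 fold change of Agt against 0 min was -2.12 (SE 0.20, adjusted p = 6.7e-08) at 28 min and -2.63 (SE 0.20, adjusted p = 2.0e-09) at 30 min. At 26 min Agt had fallen by 0.66 (adjusted p = 0.016), although leaving out 1 kidney at a time took the adjusted p-value to as much as 0.070. Against the only 0 min kidney without high interferon-response genes, the log2 fold change at 26 min was -0.66. Between 16 and 24 min its log2 fold changes lay between -0.52 at 18 min and -0.30 at 20 min, and the adjusted p-values between 0.058 and 0.31. The step from 26 to 28 min was -1.45 (SE 0.20, 95% interval -1.87 to -1.04, adjusted p = 7.6e-05). The step from 28 to 30 min was -0.51, with groups that did not overlap and an adjusted p-value of 0.0996.

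Ren1 encodes renin and lies on the plus strand at chr1:133350510-133360325. It was at 57.21, 47.37 and 63.42 FPKM at 0 min, a mean of 56.0 ± 8.09 FPKM (SD, n = 3). From 16 to 26 min its lowest level was 24.58 FPKM, its median 42.4 FPKM and its highest 72.24 FPKM, so kidneys of the same ischemia time could differ by more than the group means did. At 28 min the levels were 34.39, 54.10 and 31.36 FPKM. The 30 min group was the most uneven, with 44.81, 96.79 and 180.66 FPKM, a mean of 107 ± 68.5 FPKM and a coefficient of variation of 63.8%. The 2 highest of these were above all other kidneys of the series, while the lowest lay within the 0 to 28 min range.

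None of the 8 comparisons of Ren1 with 0 min passed the threshold. Its log2 fold change was between -0.76 and -0.18 from 16 to 28 min, with a standard error of 0.44 and, at 28 min, a 95% interval from -1.52 to 0.31. At 30 min it was 0.75 (95% interval -0.16 to 1.67, adjusted p = 0.16). This rested on single kidneys: without replicate 1 at 30 min, the lowest of that group, it was 1.30 (adjusted p = 0.014) and a DEG, and without replicate 3, the highest, it was 0.21 (adjusted p = 0.72). Against 28 min, Ren1 rose by 1.35 at 30 min (SE 0.44, adjusted p = 0.046) and was a DEG, although the groups overlapped. This call was lost in 5 of 8 alternatives, with adjusted p-values from 0.032 to 0.26, and when any kidney of either group other than replicate 1 at 30 min was left out. Without that kidney the difference was 1.90 (adjusted p = 0.0038), and without replicate 3 at 30 min it was 0.81 (adjusted p = 0.31).

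Ren2 is a near-identical copy of the renin gene that some mouse strains carry beside Ren1, and C57BL/6 mice are known to have a single renin gene. It was listed at 0 FPKM in 17 kidneys and reached at most 0.24 FPKM. Reads that such copies share can be divided between them by the counting program, so the split between Ren1 and Ren2 is uncertain.

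Ace encodes angiotensin converting enzyme and lies on the plus strand at chr11:105967945-105989964. The antisense gene Gm11651 overlaps it, and whether reads were counted by strand is not given in the sources used here. Its levels were 65.56, 61.62 and 60.00 FPKM at 0 min, a mean of 62.4 ± 2.86 FPKM (SD, n = 3). The 18 kidneys from 16 to 26 min ran from 33.95 to 58.36 FPKM with a median of 44.6 FPKM, and every one of them was below the lowest 0 min kidney. At 26 min the levels were 35.42, 33.95 and 37.47 FPKM, or 57.1% of the 0 min mean. They were 14.88, 15.65 and 17.44 FPKM at 28 min (25.6%) and 9.83, 11.02 and 11.58 FPKM at 30 min (17.3%). Ace therefore had 3 levels that did not overlap at the end of the series, at 26, 28 and 30 min.

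Ace had fallen at all 8 ischemia times. Its log2 fold changes at 16, 18 and 20 min were -0.39, -0.44 and -0.37 (SE 0.13 each, adjusted p = 0.036, 0.014 and 0.039). At 22, 24 and 26 min they were -0.67, -0.65 and -0.87, with adjusted p-values of 6.1e-04, 7.6e-04 and 5.7e-05. At 28 min it reached -2.01 (adjusted p = 9.5e-10) and at 30 min -2.49 (adjusted p = 3.3e-11). The calls from 22 to 30 min remained with each kidney left out in turn and in all alternatives. Those at 16, 18 and 20 min did not, with adjusted p-values of up to 0.27, 0.083 and 0.13 when 1 kidney was left out. Against the only 0 min kidney without high interferon-response genes, the log2 fold changes at these times were -0.46, -0.51 and -0.44.

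The step of Ace from 26 to 28 min was -1.15 (SE 0.13, 95% interval -1.41 to -0.88, adjusted p = 1.5e-05), and from 28 to 30 min it fell by a further 0.48 (adjusted p = 0.016). The second of these lost its call in some alternatives, with adjusted p-values of up to 0.082. It also did not hold with every kidney left out in turn, with adjusted p-values of up to 0.081. Within 16 to 26 min the fitted slope was -0.048 on the log2 scale per min (limma, adjusted p = 0.25), and 0 of the 18188 genes had a falling slope that passed. Leaving out replicate 2 at 16 min, the lowest Ace kidney of that time, gave -0.060 (adjusted p = 0.017).

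Agtr1a encodes the main angiotensin II receptor of the mouse kidney and lies on the plus strand at chr13:30336441-30382867, with the sense-intronic gene Gm48161 inside it. At 0 min it was at 19.82, 20.53 and 20.12 FPKM, a mean of 20.2 ± 0.356 FPKM (SD, n = 3). From 16 to 26 min it ran from 14.65 to 24.10 FPKM with a median of 19.1 FPKM, on both sides of the 0 min values. At 28 min it was at 16.28, 17.45 and 17.51 FPKM, which is 84.7% of the 0 min mean. At 30 min it was at 13.10, 10.46 and 13.04 FPKM, or 60.5%, and below all other kidneys.

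Agtr1a was a DEG at none of the 8 times by limma, with log2 fold changes between -0.27 and -0.05 from 16 to 26 min. It had fallen by 0.36 at 28 min (SE 0.13, adjusted p = 0.032) and by 0.77 at 30 min (SE 0.13, adjusted p = 5.9e-05). The first of these did not pass with any kidney of the 2 groups left out (adjusted p = 0.054 to 0.088). The second passed in all alternatives and with each kidney left out. Against the only 0 min kidney without high interferon-response genes, the log2 fold change at 28 min was -0.35. At 30 min the fall of Agtr1a was smaller than the falls of Agt and Ace, whose 95% intervals (-3.05 to -2.21 and -2.76 to -2.23) did not reach that of Agtr1a (-1.05 to -0.49). This is a comparison of intervals, and the difference between genes was not tested.

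**Figure D1:**
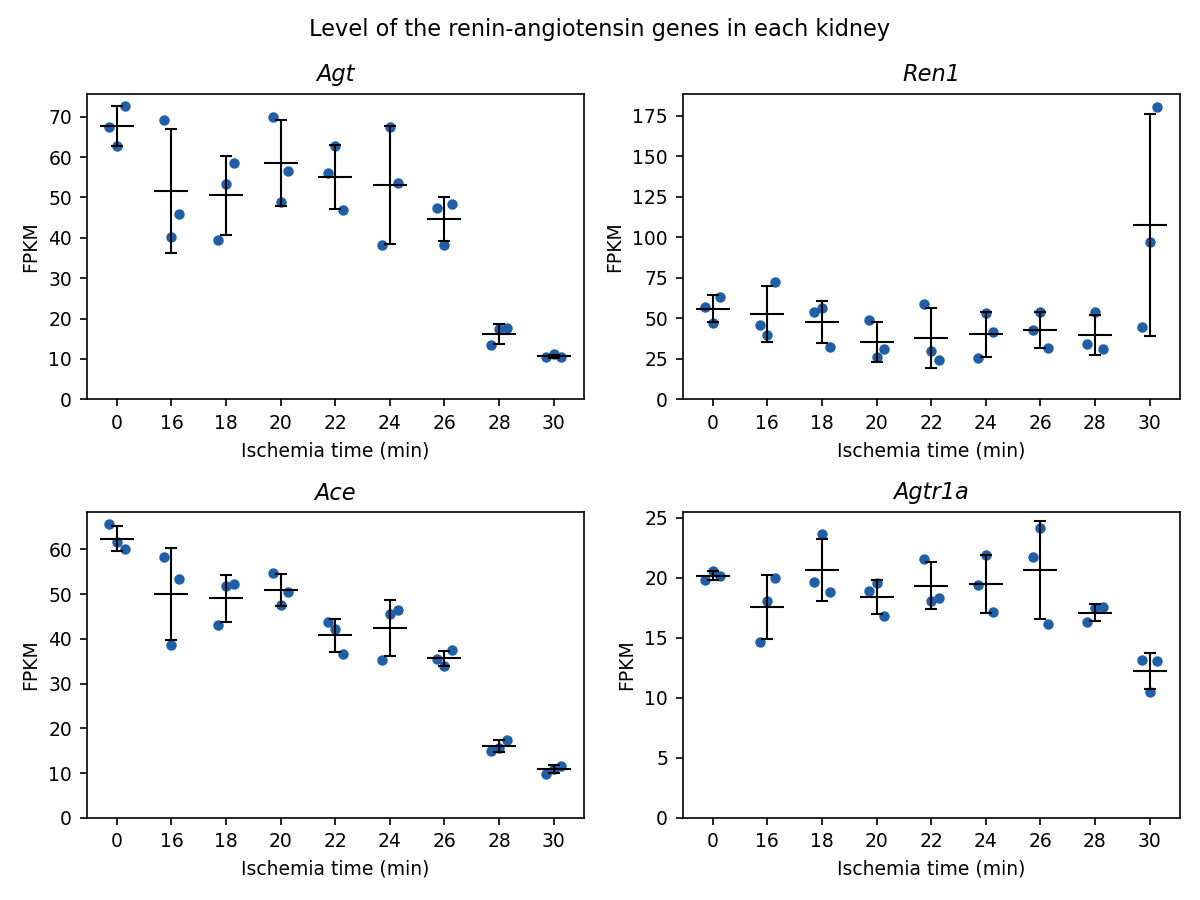
FPKM of Agt, Ren1, Ace and Agtr1a (vertical axes, from 0) in each of the 27 kidneys against ischemia time in min (horizontal axes, evenly spaced groups); points are kidneys, and the bars are the mean ± SD of 3. Agt and Ace drop to 13.37 to 17.74 FPKM and 14.88 to 17.44 FPKM at 28 min, Agtr1a falls to 10.46 to 13.10 FPKM at 30 min, and Ren1 spreads from 44.81 to 180.66 FPKM at 30 min.

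Counted over the comparisons with 0 min, limma called 0 of the 4 members as DEGs from 16 to 26 min. At an unadjusted p-value under 0.05 there were 2, 2, 1, 1, 2 and 2 members in order from 16 to 26 min, while 31.9%, 38.1%, 35.2%, 39.2%, 38.4% and 39.8% of all genes passed that limit, so these counts were near the background. The shares of all genes tested that were lower DEGs were, in the same order, 0.979%, 1.09%, 0.962%, 1.2%, 1.15% and 1.61%. By the adjusted p-value alone, 1 member (Ace) had fallen at each time from 16 to 24 min and 2 (Ace and Agt) at 26 min, where 9.61%, 15.2%, 12.1%, 15.4%, 14.8% and 15.2% of all genes were lower in the same order.

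At 28 min 2 of the 4 members, Agt and Ace, were lower DEGs, against 4.21% of all genes, and 3 had fallen by the adjusted p-value alone, against 23.6%. At 30 min 2 were lower DEGs, against 5.59%, and 3 had fallen, against 25.4%. The median log2 fold change of the 4 members was -1.31 at 28 min and -1.63 at 30 min, while the median over all genes tested was 0.00 at both times. With 4 members these medians rest on the middle pair of genes, which was Ace and Ren1 at 28 min and Ace and Agtr1a at 30 min.

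Groups that did not overlap with 0 min were also counted. Ace was below 0 min without overlap at all 8 times, Agt at 18, 22, 26, 28 and 30 min, and Agtr1a at 20, 28 and 30 min. Ren1 overlapped with 0 min at every time. The shares of all genes tested that lay below 0 min without overlap were, in order of ischemia time, 7.54%, 13.1%, 11.6%, 14.4%, 12.8%, 12.8%, 21.4% and 21.2%.

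**Figure D2:**
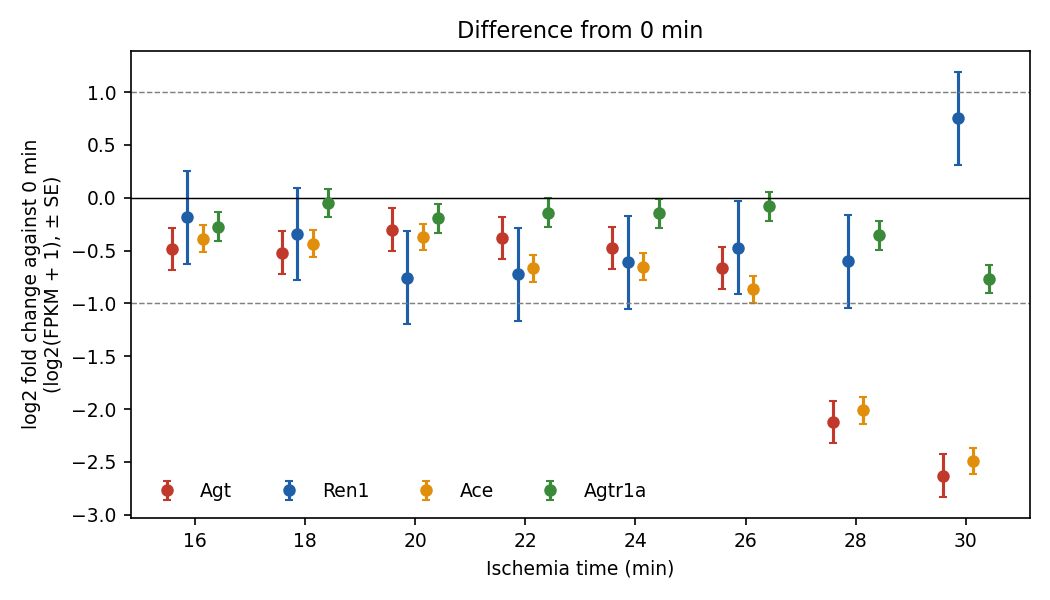
log2 fold change against 0 min (vertical axis, log2(FPKM + 1), limma) of the 4 members at the 8 ischemia times in min (horizontal axis); points are estimates, bars are ± SE, and dashed lines mark 1 and -1. Agt and Ace cross -1 at 28 min (-2.12 and -2.01) and go on to -2.63 and -2.49 at 30 min, where Ren1 stands at 0.75 and Agtr1a at -0.77.

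Over the 5 steps of 2 min between 16 and 26 min, limma called 0 members and 0% of all genes. At an unadjusted p-value under 0.05 there was 1 member in 1 of the 5 comparisons, Ace at 22 against 20 min (-0.30), where 2.46% of all genes passed that limit, beside 5.37%, 2.83%, 2.58% and 6.05% in the other steps in order. The Ace groups of this step did not overlap, against 4.59% of all genes that were lower without overlap. For 28 against 26 min, 2 of the 4 members were lower DEGs, against 1.06% of all genes (8.52% by the adjusted p-value alone), and both were without overlap, against 16.4%. For 30 against 28 min, 1 member (Ren1) was a higher DEG, against 0.401% of all genes. Agtr1a (-0.41, adjusted p = 0.045) and Ace had fallen over this step by the adjusted p-value alone, against 6.77% of all genes, and with Agt they did not overlap between these groups, against 16.4%. The call of Agtr1a was lost in some alternatives and with some kidneys left out, at adjusted p-values of up to 0.089 and 0.17. For 30 against 16 min, Agt (-2.15) and Ace (-2.11) were lower DEGs, against 3.67%. Agtr1a had fallen by 0.50 (adjusted p = 0.0050, up to 0.078 in the alternatives), against 18.1%, and Ren1 differed by 0.94 (adjusted p = 0.099). Without replicate 1 at 30 min this difference of Ren1 was 1.49 (adjusted p = 0.0079) and a DEG, and without replicate 3 it was 0.40 (adjusted p = 0.52).

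In a test over all 9 times, limma's moderated F ranked Ace 7th and Agt 210th of the 18188 genes (adjusted p = 2.3e-10 and 1.1e-08). Agtr1a passed (adjusted p = 0.0017) and Ren1 did not (adjusted p = 0.095), where 55.1% of all genes passed. In the order of group means, Ace ran from 0 min down through 20, 16, 18, 24, 22, 26, 28 and 30 min, and of its neighbours in this order 0 and 20, 26 and 28, and 28 and 30 min did not overlap. For Agt the order was 0, 20, 22, 24, 16, 18, 26, 28 and 30 min, and 26 and 28 and 28 and 30 min did not overlap. Agtr1a was highest at 18 min, followed by 26, 0, 24, 22, 20, 16, 28 and 30 min, and 28 and 30 min did not overlap. Ren1 was highest at 30 min, followed by 0, 16, 18, 26, 24, 28, 22 and 20 min, and all neighbours overlapped.

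The bases just before the transcription starts are shown for the 3 members with an entry in the RefSeq promoter table (GRCm38.p6), because Agt and Ace fell at the same times while Ren1 did not pass. The windows are the 120 bases upstream of the start, written 5′ to 3′ on the strand of the gene, and the capitals mark TATAAA, searched on both strands. They are chr1:133350554-133350673 (plus strand) for Ren1, chr8:124569707-124569826 (minus strand) for Agt and chr11:105967828-105967947 (plus strand) for the first start of Ace. The starts are those of RefSeq and differ in part from GENCODE. By the GENCODE start at chr1:133350510 the Ren1 window lies inside the gene, and the Ace window ends just past the GENCODE start at chr11:105967945.
Ren1: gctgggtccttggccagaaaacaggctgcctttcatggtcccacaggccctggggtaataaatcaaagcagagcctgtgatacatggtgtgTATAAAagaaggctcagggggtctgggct
Agt: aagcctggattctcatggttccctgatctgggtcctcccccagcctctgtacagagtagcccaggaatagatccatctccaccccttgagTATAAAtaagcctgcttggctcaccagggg
Ace: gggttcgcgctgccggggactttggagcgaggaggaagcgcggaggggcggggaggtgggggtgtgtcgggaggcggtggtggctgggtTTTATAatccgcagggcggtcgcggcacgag

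TATAAA began 29 bases before the start in Ren1 and 30 bases before it in Agt. In Ace the letters were on the opposite strand, from 31 bases before the start, and they were not found in the window of a second, downstream start. Of 32851 windows of the same length, 6.34% held the letters on either strand. A match describes the letters only. The motif was shared by Ren1, Agt and the first start of Ace, of which Agt and Ace had fallen at 28 and 30 min while Ren1 passed at neither (-0.60 and 0.75).

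The renin-angiotensin list held 24 other measured genes, of which 20 passed the filter of values above 0 FPKM in at least 3 kidneys. At 28 min 3 of the 20 were lower DEGs and 0 were higher DEGs, against 4.21% and 4.27% of all genes, and by the adjusted p-value alone 9 had fallen and 4 had risen. At 30 min 2 were lower and 1 was a higher DEG, against 5.59% and 5.14%, with 9 fallen and 4 risen. The median log2 fold change of the 20 genes was -0.14 at 28 min and -0.28 at 30 min, beside medians of 0.00 over all genes. Among the 20, Agtr1b, Agtr2, Ren2 and Cpa3 reached at most 0.05, 0.06, 0.24 and 0.22 FPKM. With a pseudocount of 1 FPKM their log2 fold changes stay near 0, which enters these medians and counts. From 16 to 24 min 0 of the 20 were DEGs. At each of these times 2 or 3 had risen and between 2 and 4 had fallen by the adjusted p-value alone. Of all genes, 9.61% to 15.4% had fallen at these times. For the 6 times from 16 to 26 min, the shares of all genes that were higher DEGs were 1.28%, 1.97%, 1.55%, 2.09%, 1.97% and 2.16% in order, and the shares that had risen by the adjusted p-value alone were 9.43%, 12.6%, 10.7%, 13.4%, 13.6% and 14.9%. At 28 and 30 min 24.5% and 26.9% of all genes had risen, and 23.6% and 25.4% had fallen.

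Over the step from 26 to 28 min 1 gene of the list, Anpep, was a lower DEG (-1.32), against 1.06% of all genes, and 5 had fallen by the adjusted p-value alone, against 8.52%. Over the step from 28 to 30 min Anpep was again the 1 lower DEG (-1.09), against 0.649% of all genes. In this step Enpep also fell (-0.58), against 6.77% of all genes that had fallen, and Klk1 rose by 0.92, against 6.47% of all genes that had risen.

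Among the peptidases listed as making angiotensin peptides, Klk1, tissue kallikrein, which releases kinins and belongs to a family of close copies between which reads can be shared, was a lower DEG at 28 min (-1.51). Its 3 kidneys at that time had 1831.48, 1221.57 and 774.22 FPKM, against 2757.85 to 2853.50 FPKM at 0 min. At 30 min they were at 1793.35, 2573.18 and 4585.59 FPKM, on both sides of the 0 min group.

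Ctsa, cathepsin A, was at 158.57, 163.09 and 178.32 FPKM at 0 min and fell by 0.29 at 28 min and by 0.43 at 30 min. The mast cell and neutrophil proteases Cma1, Mcpt4, Cpa3 and Ctsg were at 0 FPKM in 25, 27, 21 and 27 of the 27 kidneys.

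Of 8 peptidases that break angiotensin peptides, 2 were lower DEGs at 28 min and 2 at 30 min, against 4.21% and 5.59% of all genes. Anpep, aminopeptidase N of the brush border, was at 70.63, 66.38 and 61.12 FPKM at 0 min and stayed between 57.78 and 87.15 FPKM through 26 min. It had 27.30, 32.58 and 26.62 FPKM at 28 min and 13.95, 13.44 and 10.68 FPKM at 30 min, without overlap between the 2 times. Its log2 fold change was -1.28 at 28 min and -2.37 at 30 min (SE 0.13 each), and by the F-test over all times it ranked 6th of the 18188 genes, next to Ace.

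Mme, neprilysin, which cuts angiotensin I to angiotensin 1-7, was lower by the adjusted p-value from 18 min on, with log2 fold changes from -0.77 to -0.52 between 18 and 26 min. It was a DEG at 28 min (-1.68) and at 30 min (-2.02). Enpep, aminopeptidase A, which makes angiotensin III, was at 39.27, 42.78 and 37.88 FPKM at 28 min against 33.83, 39.89 and 39.05 FPKM at 0 min, and it fell only at 30 min (-0.60, adjusted p = 0.0038). Anpep, Mme and Enpep are therefore peptidases of the same brush border whose levels fell from different times on, and differences between them were not tested.

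Other peptidases of the list went up. Prep, prolyl endopeptidase, and Thop1, thimet oligopeptidase, both of which can form angiotensin 1-7 in the cytosol, had risen at all 8 times. Prep was at 9.56, 8.99 and 10.41 FPKM at 0 min and at 17.86, 19.03 and 18.28 FPKM at 28 min, a log2 fold change of 0.72 (SE 0.07, adjusted p = 1.4e-07). Thop1 was at 7.33, 6.87 and 8.10 FPKM at 0 min and at 14.42, 17.26 and 15.01 FPKM at 28 min, a log2 fold change of 0.83 (SE 0.13, adjusted p = 2.9e-05). Nln, neurolysin, had risen by 0.44 at 28 min and by 0.52 at 30 min. Lnpep, which binds angiotensin IV, had risen by 0.31 at 28 min, and Prcp, a prolyl carboxypeptidase, fell by 0.36 at 28 min and by 0.48 at 30 min.

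Among receptors and their partners, Mas1, the receptor of angiotensin 1-7, was at 0.93, 1.01 and 1.10 FPKM at 0 min. It rose to 3.06, 2.53 and 2.10 FPKM at 16 min (log2 fold change 0.67, adjusted p = 0.015) and to 2.73, 2.65 and 2.64 FPKM at 18 min (0.70, adjusted p = 0.0074). At 30 min it fell to 0.58, 0.28 and 0.43 FPKM (-0.64, adjusted p = 0.0061). At levels this near the pseudocount of 1 FPKM, these log2 fold changes understate the change. Mas1 was thus above 0 min at the short times and below it at 30 min, while Agtr1a did not pass at 16 or 18 min.

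Agtrap, which binds the type 1 receptor and promotes its uptake into the cell, had fallen at all 8 times, from -0.25 at 16 min to -0.80 at 28 min (adjusted p = 1.4e-08) and -0.90 at 30 min (adjusted p = 1.1e-09). Atp6ap2, the (pro)renin receptor, had fallen from 16 to 24 min and at 28 min, with log2 fold changes between -0.39 and -0.30. The other angiotensin II receptors gave almost no RNA, with Agtr1b at 0 FPKM in 19 kidneys and at most 0.05 FPKM, and Agtr2 at 0 FPKM in 16 kidneys and at most 0.06 FPKM. Mrgprd, a receptor for an angiotensin 1-7 relative, was at 0 FPKM in all 27 kidneys.

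In the mineralocorticoid arm, through which aldosterone acts on the collecting duct, Nr3c2, the receptor, fell by 0.63 at 28 min and by 0.53 at 30 min. Hsd11b2, the enzyme that keeps cortisol-like steroids off this receptor, fell by 0.66 and 0.51 (adjusted p = 0.0068 and 0.030). Sgk1, a kinase induced by the receptor and by many stresses, was at 19.25, 26.49 and 49.63 FPKM at 0 min and at 60.12, 92.61 and 109.71 FPKM at 30 min (log2 fold change 1.49, SE 0.38, adjusted p = 0.0025). It was also a higher DEG at 26 min (1.07, adjusted p = 0.038), against 2.16% of all genes, but in 4 of the 6 fits without 1 kidney this call was lost. In 100 results of the members and the list that passed the adjusted p-value, 0 changed direction without quantile normalization or with FPKM rescaled to a constant sum. Of these, 0 moved by more than 1.5-fold. Results that pass lie away from 0, so a change of direction was unlikely from the start. Whether each result of the list still passed is not given here.

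**Figure D3:**
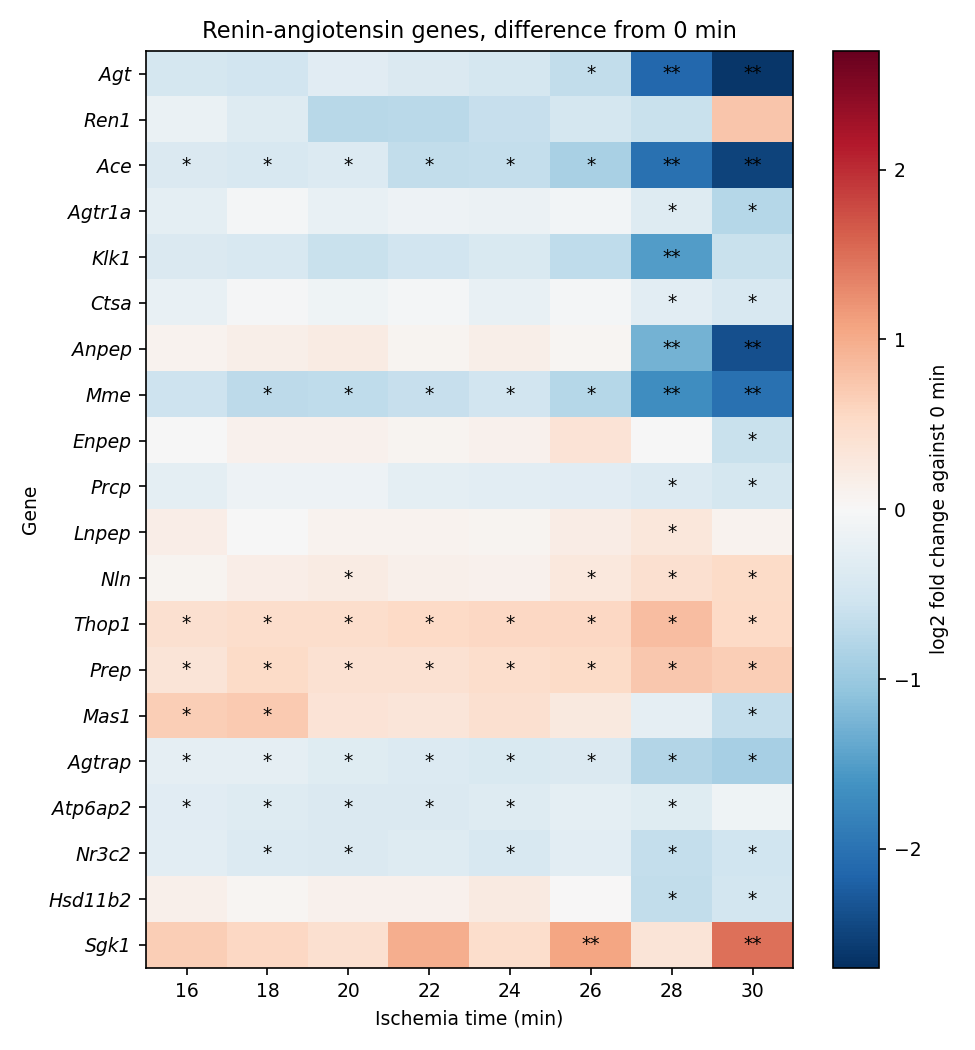
log2 fold change against 0 min (colour scale, red higher and blue lower) of the 4 members and 16 other renin-angiotensin genes with measurable RNA (rows) at the 8 ischemia times in min (columns); 1 asterisk marks an adjusted p-value under 0.05 and 2 asterisks mark a DEG. Ace, Mme and Agtrap are blue from the short times on, Agt and Anpep turn deep blue at 28 and 30 min, and Prep and Thop1 are red at all times.

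Markers of the cell types that hold these genes moved as well. Their counts stand beside 4.21% of all genes as lower and 4.27% as higher DEGs at 28 min, and 5.59% and 5.14% at 30 min, where by the adjusted p-value alone 25.4% had fallen and 26.9% had risen. Of 8 proximal tubule markers, which mark the segment making angiotensinogen, 2 or 3 were lower DEGs at each time from 16 to 26 min, with medians between -0.55 and -0.48, against 0.962% to 1.61% of all genes. By the adjusted p-value alone 3 or 4 had fallen at each of these times, against 9.61% to 15.4% of all genes. Slc34a1, Slc5a2, Slc5a12 and Slc22a6 had their highest level of the series in a kidney from 16 to 26 min. In these 18 kidneys Slc7a13, Cyp7b1, Slc22a7 and Lrp2 reached at most 229.98, 40.64, 52.39 and 136.54 FPKM. Their highest levels at 0 min were 315.94, 152.63, 106.97 and 169.35 FPKM. At 28 min 5 of the 8 markers were lower DEGs and at 30 min 7, with medians of -1.71 and -2.66. Slc34a1, the phosphate transporter, had log2 fold changes of -1.88 at 28 min and -2.46 at 30 min. Their summed level ran from 3006.11 to 3526.23 FPKM at 0 min, from 1810.74 to 3436.67 FPKM between 16 and 26 min, from 1110.68 to 1223.99 FPKM at 28 min and from 662.16 to 771.98 FPKM at 30 min, and no marker of the list was at 0. The part of this in the falls of Agt and Ace, the falls of Ace at the shorter times included, was not tested.

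Endothelium is another source of Ace. Of 6 endothelial markers 0 were DEGs by limma at 28 or 30 min, while 4 had risen at 30 min by the adjusted p-value alone, with a median log2 fold change of 0.61. Their summed level ran from 89.9 to 108.4 FPKM at 0 min, from 93.64 to 111.35 FPKM at 28 min and from 119.39 to 200.23 FPKM at 30 min, with no marker at 0. Of 7 markers of mesangium and vascular smooth muscle, where the type 1 receptor is also found, 4 were higher DEGs at 30 min. By the adjusted p-value alone 6 had risen and 1 had fallen at 30 min. At each time from 16 to 26 min 2 or 3 of the 7 were already higher DEGs, against 1.28% to 2.16% of all genes. Their summed level ran from 31.12 to 40.82 FPKM at 0 min and from 74.81 to 169.37 FPKM between 16 and 26 min. It ran from 104.38 to 132.56 FPKM at 28 min and from 143.86 to 467.56 FPKM at 30 min, with no marker at 0. At 28 and 30 min most of this was Tagln and Acta2, at up to 247.37 and 176.95 FPKM. Pdgfrb and Itga8 reached at most 20.96 and 1.51 FPKM at these times. The part of these lists in the values of Ace and Agtr1a was not tested.

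Of 4 markers of fat, which makes angiotensinogen too, 0 were DEGs by limma at 28 or 30 min, and Adipoq was at 0 FPKM in 14 kidneys, with at most 24.48 FPKM. Their summed level ran from 35.03 to 46.13 FPKM at 0 min, from 31.43 to 39.69 FPKM at 28 min and from 80.12 to 99.32 FPKM at 30 min, and reached 293.88 FPKM at the shorter times. At 28 and 30 min this sum was almost only Fabp4, at 30.84 to 98.44 FPKM. Adipoq, Plin1 and Cidec reached at most 1.79, 0.46 and 2.13 FPKM at these 2 times. Liver is the main source of circulating angiotensinogen, and Alb, its albumin gene, ran from 1.41 to 5.77 FPKM. The summed level of 4 liver markers was mostly that of Ttr, which ran from 27.99 to 345.61 FPKM over the 27 kidneys. Apoa1 and Apoa2 reached at most 2.76 and 9.72 FPKM. The sum ran from 75.81 to 90.82 FPKM at 0 min. From 16 to 24 min it was above this in every kidney, at 124.53 to 357.45 FPKM, and 1 marker was a higher DEG at each time from 16 to 22 min. The sum then ran from 76.73 to 149.79 FPKM at 26 min, from 37.64 to 46.87 FPKM at 28 min and from 40.99 to 53.56 FPKM at 30 min, and 3 of the 4 had fallen at both of the last times, against 23.6% and 25.4% of all genes. The part of both lists in the Agt values was not tested. The adrenal genes Cyp11b1, Cyp21a1 and Hsd3b1 reached at most 0.05, 0.16 and 0.12 FPKM, and Star ran from 0.69 to 1.37 FPKM, so 3 of the 4 adrenal cortex markers measured were at or near 0. Among other cell types, 3 of 5 podocyte markers had risen at 30 min, against 26.9% of all genes. Of 7 leukocyte markers 4 were higher DEGs at 30 min and 1 was a lower one, against 5.14% and 5.59%.

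Juxtaglomerular cells were represented by 6 markers. Their summed level ran from 16.4 to 17.3 FPKM at 0 min, from 17.23 to 23.57 FPKM at 28 min and from 22.28 to 30.84 FPKM at 30 min, and none was at 0. At 30 min 1 was a higher DEG, Ptger4, the prostaglandin E2 receptor EP4, with 3.81, 3.54 and 5.41 FPKM against 1.15, 0.98 and 1.11 FPKM at 0 min (log2 fold change 1.18, SE 0.13, adjusted p = 3.3e-07). Gja5, the connexin 40 of renin cells, rose by 0.82 and Gja4, connexin 37, by 0.51, while Adrb1, the receptor for sympathetic drive to renin release, fell by 0.42. Adrb1 was at 0.39, 0.32 and 0.87 FPKM at 30 min against 0.63, 1.08 and 0.85 FPKM at 0 min, so the groups overlapped. These levels are near the pseudocount of 1 FPKM, and Adrb1 did not pass limma's moderated F over all 9 times (adjusted p = 0.13). Ptgs2, the prostaglandin synthase of the macula densa, rose by 0.85 at 30 min (adjusted p = 9.8e-04), while 2 of the 4 macula densa markers were lower DEGs. The part of these markers in the Ren1 values was not tested.

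Akr1b7, an aldo-keto reductase known to be made together with renin in juxtaglomerular cells, did not pass at 30 min (log2 fold change 0.39, adjusted p = 0.14) but followed Ren1 from kidney to kidney. In the 18 kidneys from 16 to 26 min, log2(FPKM + 1) of Ren1 and Akr1b7 had Pearson's r = 0.860 (permutation p = 3.0e-05, adjusted p = 3.6e-04 over 12 relations) and Spearman's rho = 0.853 (permutation p = 3.0e-05). Without the 2 kidneys farthest from the median of Ren1 r was 0.827, and after each ischemia time was centred on its mean it was 0.836. The 2 kidneys with the highest Ren1 at 30 min, at 96.79 and 180.66 FPKM, had 3.24 and 3.37 FPKM of Akr1b7, and the other one had 2.23 FPKM. In the 0 min group the kidney with 57.21 FPKM of Ren1 had the lowest Akr1b7 of the series, at 1 FPKM.

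The other 5 juxtaglomerular markers gave r between -0.321 and 0.399 with Ren1 in these kidneys, and none passed. Of the 6 pairs among the members, Agt and Ace passed, with r = 0.686 (permutation p = 0.0021, adjusted p = 0.013) and rho = 0.674 (permutation p = 0.0027). Without the 2 kidneys farthest from the median of Agt r was 0.558, and after centring each time it was 0.857. Ren1 did not pass with Agt (r = 0.0871), Ace (r = 0.318) or Agtr1a (r = 0.451, adjusted p = 0.25).

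**Figure D4:**
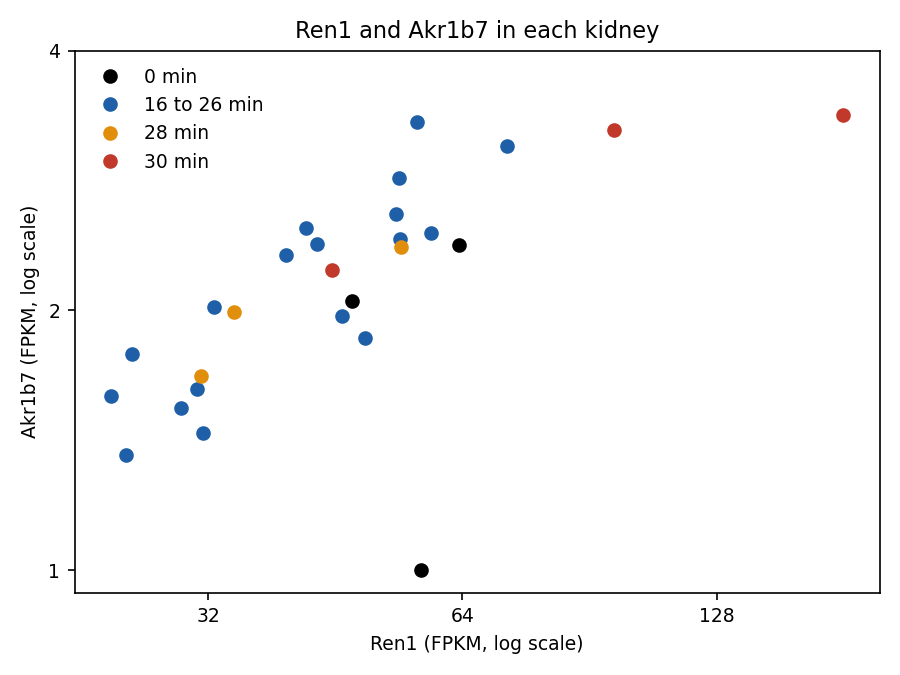
Akr1b7 FPKM against Ren1 FPKM (both axes on a log scale) in the 27 kidneys, each a point coloured by ischemia time. The 18 kidneys from 16 to 26 min run from low values of both genes to high values of both (r = 0.860), and 1 kidney of the 0 min group lies apart at 1 FPKM of Akr1b7.

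The genes whose levels were most like those of each member over the 27 kidneys were found by Pearson's r among 12928 other genes, as a description. For Ace they were Treh, the brush border trehalase (r = 0.987), Csad, an enzyme of taurine synthesis (r = 0.987), and Mpv17l (r = 0.986). For Agt they were Hpn, the membrane protease hepsin (r = 0.982), Slc22a13, an organic anion transporter (r = 0.978), and Ace itself (r = 0.976). In all, 562 genes had r above 0.9 with Ace and 430 with Agt, so the shape of these 2 curves was common in the kidney. For Agtr1a the nearest were Apmap (r = 0.923), Nepn (r = 0.922) and Mansc4 (r = 0.919), and 3 genes were above 0.9. For Ren1 they were Arhgap28 (r = 0.806), Sgtb (r = 0.789) and St3gal5 (r = 0.788), and 0 genes were above 0.9. All 27 kidneys share the contrast between short and long ischemia, which enters each of these values.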

How the data were processed

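RNA-Seq was done on the left kidneys of 27 mice. The deposited values are linear FPKM per gene, which the authors rounded to 2 decimals. The submitters' processing notes name Bowtie2, RSEM, DESeq2 and GRCm38.p6, with no versions. Read counts were not recovered: of the values of 2 to 6 fragments in 84 low genes, 79.4% were within 0.15 of a whole number. The summed FPKM of a kidney ran from 512453 to 554036.

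Kidneys were grouped by ischemia time. log2(FPKM + 1), a pseudocount of 1 FPKM, was quantile normalized and fitted in limma 3.58.1 (R 4.3.3) with 1 mean per time. Of all genes, the 18188 that exceeded 0 FPKM in 3 or more kidneys were tested. The replicates are different mice, no batch is labelled, and no 2 kidneys had identical values. The step was tested on simulated data. Correlations were tested with 100000 permutations (scipy 1.17.1, Python 3.11.15). Figures used matplotlib 3.10.9.

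Coordinates are from GENCODE M21 (GRCm38) and promoters from RefSeq (GRCm38.p6). The members and gene lists were chosen with earlier results of these data known. Named genes are the members, the renin-angiotensin list, cell type markers and the 3 genes most like each member. The alternatives left out quantile normalization, the filter or each kidney in turn, or used 0.1 FPKM as pseudocount, a constant sum (TPM), 1 FPKM as the filter in 3 kidneys, a trended prior, the replicate number as a block, or only the 2 groups of a comparison. Leaving out both 0 min kidneys with over 500 FPKM of 7 interferon-response genes was added after seeing the data. Cyp11b2, serum creatinine and histology were not analysed here, and results for some genes are not reported here.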

Additional observations from a re-analysis of the deposited data

How the results depend on the processing

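The calls of Agt and Ace at 28 and 30 min and between 26 and 28 min held in all 8 alternatives and with each kidney left out. Agtr1a reversed against 0 min to 0.028 at 18 min and 0.016 at 26 min without quantile normalization and to 0.0020 and 0.045 with a constant sum, without passing in any of these. The members called at 30 against 28 min went from 1 (Ren1) to 0 without quantile normalization, with a constant sum, without a filter, with the replicate block and in a fit of 2 groups. The other list genes called became 1 in place of 0 at 18 min (pseudocount 0.1, constant sum) and at 22 min (no quantile normalization, constant sum). At 26 min they became 0 in place of 1 in a fit of 2 groups. At 30 against 28 min they became 2 in place of 1 without quantile normalization, with a constant sum, with the filter at 1 FPKM and with the replicate block, and 0 in a fit of 2 groups.

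When kidneys were dropped singly, the members called at 30 against 28 min ran from 0 to 1. The other list genes called ran from 0 to 1 at 22 and at 26 min, from 1 to 2 at 28 against 26 min and from 0 to 3 at 30 against 28 min. The log2 fold change of Ren1 ran from -0.46 to 0.0011 at 16 min, from 0.21 to 1.30 at 30 min (adjusted p = 0.014 without replicate 1 at 30 min), from -0.38 to 0.061 at 28 against 26 min, from 0.81 to 1.90 at 30 against 28 min, and from 0.40 to 1.49 at 30 against 16 min. That of Agtr1a ran from -0.15 to 0.010 at 18 min and from -0.21 to 0.082 at 26 min. The slope of Ace ran from -0.060 to -0.043. The cause was not tested for any of these.

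Groups share replicate numbers in the labels, and the replicates are different mice. Same-numbered kidneys had a mean correlation of deviations of 0.00868 (108 pairs), and 25 of the pairs were above 0.1. Kidneys of different numbers had a mean of -0.00455 (216 pairs), and 53 of the pairs were above 0.1. These values cannot show whether kidneys of the same number were handled together. The replicate block lost the call of Ren1 at 30 against 28 min (adjusted p = 0.061) and changed no other DEG call of a member. Limits are the 3 mice per time, the unknown depth, and the SD of Ren1 at 30 min.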
